A study of Homo sapiens with 7 samples.

Results

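The genes described here encode the ligands by which natural killer (NK) cells are activated through the receptors NKG2D, DNAM-1 and NKp30. The set was defined by gene name and holds 10 of the 57189 genes in the count table. MICA, MICB, ULBP1, ULBP2, ULBP3 and RAET1G encode ligands of NKG2D, PVR and NECTIN2 encode ligands of DNAM-1, and NCR3LG1 and BAG6 encode ligands of NKp30. All 10 were present in the table. RNA was sequenced from RH30 cells, an established line of alveolar rhabdomyosarcoma (RMS), and the comparison asked what BV6 did to the mRNA of these tumor cells. The 7 libraries were 4 of untreated cells and 3 of cells given 5 µM BV6 for 24 h in complete RPMI medium. BV6 is a Smac mimetic, a compound that antagonizes inhibitor of apoptosis proteins. The genotype label was wt in both groups, and the study's methods state that RH30 cells expressing GFP and luciferase were used throughout. A code in the sample titles joined untreated replicates 2, 3 and 4 to BV6 replicates 2, 3 and 4 (BC13, BC14 and BC25/27), and untreated replicate 1 (BC11) had no BV6 partner. The paper calls its RNA-seq replicates biological, and the labels do not say whether they came from separate cultures. The p-values therefore measure the spread between these samples only. The labels name no NK cells in these cultures, and protein at the cell surface was not measured in these files.

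NKG2D ligands are distant relatives of MHC class I molecules. They are scarce on most healthy cells and are induced by heat shock, DNA damage, infection and transformation. DNAM-1 binds PVR (CD155) and nectin-2, adhesion molecules that also bind the inhibitory receptors TIGIT, CD96 and PVRIG on NK and T cells. NKp30 binds B7-H6, the product of NCR3LG1, and BAG6, a chaperone of the cytosol and nucleus that some cells release.

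Totals ranged from 54070030 to 77220882 counts per library, so that 3 counts corresponded to 0.0389 to 0.0557 CPM, the field's measure of counts scaled to library size, here with the library size normalized by TMM, the scaling method of edgeR. This limit covers counting error only. Of the RH30 markers, MYOD1 had 9652 to 36490 counts and DES 25328 to 63888 counts per library, and MYOG, CDH15, CHRNG and MYL4 were also present, while TFAP2B had 1 to 6 counts. All 6 RH30 markers with enough counts to be tested missed the threshold, with 5 of the 6 log2 fold changes below 0 and a median of -0.52. Of 19 genes of NK cells and of the receptors for these ligands, KLRF1 had at most 3 counts in any library and KLRK1, which encodes NKG2D, had 5 to 18, whereas NKG7 had 297 to 853, PVRIG 155 to 400 and CD96 30 to 53. Summed over the 19 genes, the level was 15.0 to 19.3 CPM in untreated and 10.1 to 15.3 CPM in BV6-treated cells, and 0 of the 9 that could be tested were called. Of 5 other leukocyte genes, 0 of the 4 tested were called, ITGB2 had 1064 to 3389 counts and PTPRC 11 to 58, and the summed level was 33.3 to 45.6 CPM in untreated and 18.4 to 36.2 CPM in BV6-treated cells. The part of these markers in the results below was not tested. In bulk RNA, fewer cells of a state and less RNA per cell cannot be told apart.

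The ligand genes lie in a few neighbourhoods of the genome (GENCODE release 44, GRCh38). MICA and MICB lie in the MHC region of chromosome 6 at chr6:31399784-31415315 and chr6:31494881-31511124, both on the plus strand, and BAG6 is in the same region at chr6:31639028-31652705 on the minus strand. The NKG2D ligands of the other branch form a cluster near the other end of chromosome 6, with RAET1G at chr6:149916878-149923121 (minus), ULBP2 at chr6:149942014-149949235 (plus), ULBP1 at chr6:149963943-149973715 (plus) and ULBP3 at chr6:150061053-150069121 (minus). PVR at chr19:44643798-44666162 and NECTIN2 at chr19:44846175-44889223 are neighbours on the plus strand of chromosome 19, and NCR3LG1 is at chr11:17351800-17377341 on the plus strand.

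Promoter sequences are shown for the genes on which the comparison turned, PVR and ULBP1, for NECTIN2 as the other DNAM-1 ligand, and for MICA with MICB because their promoters are alike and carry a heat shock motif. Each is the 250 bases before the RefSeq transcription start on GRCh38.p14, plus strand, 5′ to 3′. Capitals mark matches to GAANNTTC, the core of a heat shock element, and to GGGCGG, the GC box, on either strand. The windows of MICA and MICB lie inside the longer gene models of GENCODE, and for PVR and NECTIN2 the GENCODE gene begins inside the window.
PVR, chr19:44643660-44643909: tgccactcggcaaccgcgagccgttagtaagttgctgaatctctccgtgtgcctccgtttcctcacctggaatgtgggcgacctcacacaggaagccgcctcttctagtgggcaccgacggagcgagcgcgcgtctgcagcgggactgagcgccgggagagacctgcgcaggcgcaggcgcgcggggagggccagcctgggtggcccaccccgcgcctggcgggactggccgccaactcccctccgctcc
NECTIN2, chr19:44846047-44846296: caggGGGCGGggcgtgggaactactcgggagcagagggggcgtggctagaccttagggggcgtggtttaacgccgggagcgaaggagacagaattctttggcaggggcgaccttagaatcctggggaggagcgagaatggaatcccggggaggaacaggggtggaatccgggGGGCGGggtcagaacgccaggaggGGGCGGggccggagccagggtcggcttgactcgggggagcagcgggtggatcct
ULBP1, chr6:149963693-149963942: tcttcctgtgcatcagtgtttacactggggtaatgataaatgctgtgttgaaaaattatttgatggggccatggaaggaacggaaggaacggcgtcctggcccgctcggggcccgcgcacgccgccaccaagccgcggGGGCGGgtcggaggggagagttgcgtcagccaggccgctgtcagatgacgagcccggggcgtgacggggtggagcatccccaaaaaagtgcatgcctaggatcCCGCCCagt
MICA, chr6:31403345-31403594: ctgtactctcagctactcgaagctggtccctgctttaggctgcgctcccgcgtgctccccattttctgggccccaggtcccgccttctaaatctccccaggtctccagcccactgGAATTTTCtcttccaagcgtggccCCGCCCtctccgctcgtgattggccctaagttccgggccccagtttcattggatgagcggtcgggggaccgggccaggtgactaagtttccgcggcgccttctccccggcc
MICB, chr6:31497895-31498144: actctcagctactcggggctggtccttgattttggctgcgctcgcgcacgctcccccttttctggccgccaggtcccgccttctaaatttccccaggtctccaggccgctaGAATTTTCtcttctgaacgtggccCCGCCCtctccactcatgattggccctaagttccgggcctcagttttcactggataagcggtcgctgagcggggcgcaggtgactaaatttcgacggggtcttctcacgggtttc

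MICA and MICB were identical at 210 of 254 aligned positions (82.7%) of these windows, whereas PVR and NECTIN2 were identical at 50.3% of theirs. Both MICA and MICB held the heat shock letters GAATTTTC, starting at positions -135 and -139 from the transcription start, with a GC box downstream. The heat shock motif occurred in 5.80% of all 34943 RefSeq promoter windows and in none of the other 8 ligand genes. The GC box occurred in 42.5% of all windows and in 8 of the 10 ligand genes, with 6 copies in ULBP3 and 3 in NECTIN2 and with no copy in PVR or BAG6. Matches to the NF-κB motif, the CRE (TGACGTCA), AP-1 (TGANTCA), the ISRE and E2F (TTTCGCGC or TTTGGCGC) were in none of the 10 windows, against 5.20%, 1.63%, 6.59%, 3.02% and 0.956% of all windows. No match says only that these letters are not in the window.

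In untreated RH30 cells, the ligand mRNAs spanned a wide range per length of exon. BAG6 led with 37.6 ± 4.06 CPM per kb (SD, n = 4), followed by NECTIN2 with 15.4 ± 1.96 and PVR with 5.04 ± 0.313 CPM per kb. These 3 stood at percentiles 94.1, 83.4 and 58.2 of the 17931 tested genes with a known length. NCR3LG1 was next at 2.14 ± 0.235 CPM per kb, above every NKG2D ligand. Among the NKG2D ligands, MICA was at 1.58 ± 0.101, ULBP2 at 1.18 ± 0.363, ULBP1 at 1.15 ± 0.195 and ULBP3 at 0.666 ± 0.138 CPM per kb. RAET1G and MICB closed the order with 0.136 ± 0.0492 and 0.0894 ± 0.0545 CPM per kb, at percentiles 11.0 and 8.11. The untreated libraries of neighbours in this order overlapped for MICA with ULBP2, ULBP2 with ULBP1, and RAET1G with MICB, and for no other neighbours. With the length of the longest transcript in place of all exons, MICA reached 2.70 CPM per kb and ranked above NCR3LG1.

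**Figure D1:**
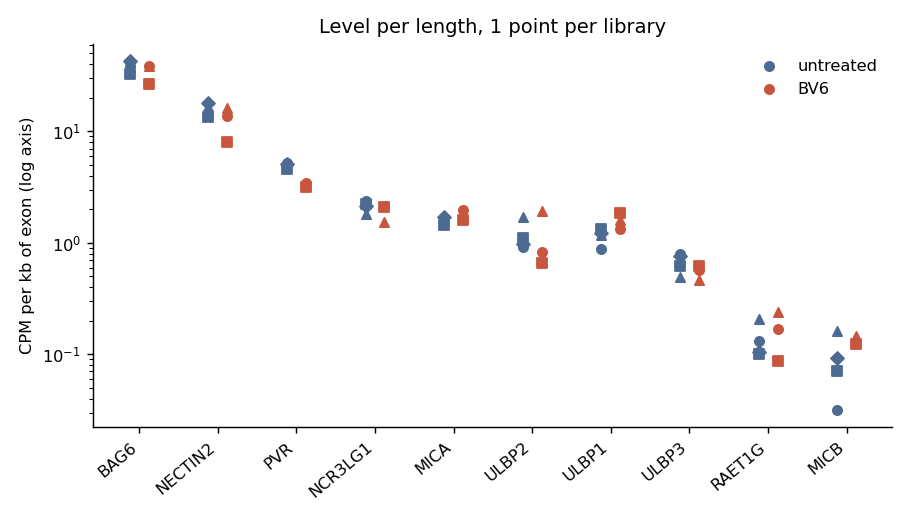
Level of each ligand gene in CPM per kb of exon (log axis), with 1 point per library, untreated in blue and BV6 in red, and 1 marker shape per BC code. The order runs from BAG6 at 37.6 CPM per kb in untreated cells to MICB at 0.0894 CPM per kb, and PVR is the gene whose red points all lie below its blue points.

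None of the 10 ligand mRNAs passed the threshold of the edgeR quasi-likelihood test with condition only, which leaves out the pairing by BC code. A gene is called at a Benjamini-Hochberg adjusted p below 0.05 over all genes tested. All 10 passed the filter on low counts, and 0 were called, while 104 of all 23124 genes tested were called (0.45%, with 0.394% higher and 0.0562% lower). An unadjusted p below 0.05 was found for 2 of the 10, PVR and ULBP1, against 8.39% of all genes tested. Of the log2 fold changes (BV6 against untreated), 4 were above 0 and 6 below, with a median of -0.083, and over all genes tested the median was -0.014 with 52.3% below 0. The BV6 and untreated libraries did not overlap for 1 ligand gene, PVR, which was lower, against 8.83% of all genes tested, made up of 3.89% lower and 4.94% higher. The count of 0 became 1 under DESeq2, under RLE scaling, without the filter on low counts and with the BC code as a replicate block, and in each case the gene called was PVR. Under these settings 1.7%, 0.454%, 0.557% and 0.943% of all genes tested were called.

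**Figure D2:**
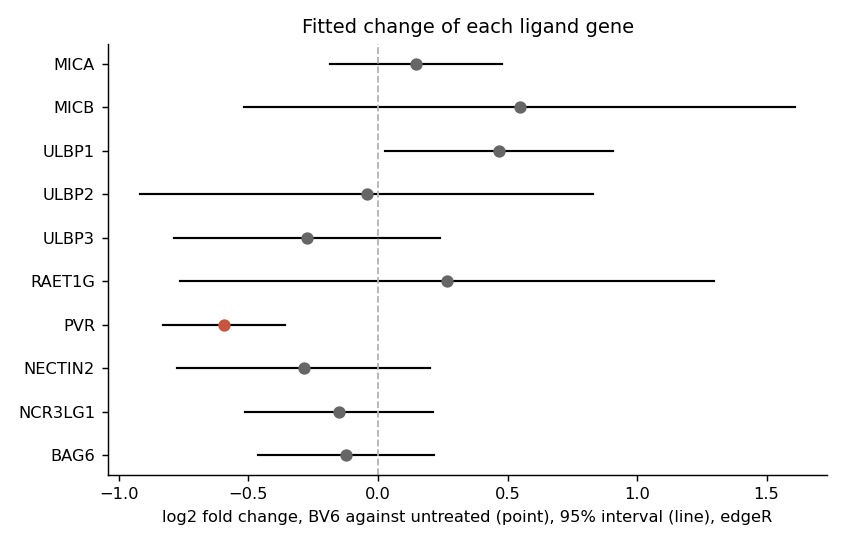
Fitted log2 fold change of each ligand gene in BV6-treated against untreated cells (points) with its 95% interval (lines) from edgeR, with PVR in red as the gene whose groups did not overlap. The intervals of PVR (-0.83 to -0.36) and ULBP1 (0.029 to 0.91) leave out 0 before adjustment, and those of the other 8 genes include it.

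Of the DNAM-1 ligands, PVR had the lowest p of the set and the narrowest spread, with an SD of 6.21% of the mean in untreated and 4.92% in BV6-treated cells. PVR mRNA was at 53.3, 54.6, 47.8 and 54.7 CPM in untreated replicates 1 to 4 and at 36.2, 32.9 and 35.4 CPM in BV6 replicates 2 to 4, from 1907 to 4102 counts. All BV6 libraries were below all untreated libraries. The group means were 52.6 ± 3.26 CPM (SD, n = 4) and 34.8 ± 1.71 CPM (SD, n = 3). The fitted log2 fold change was -0.59 with a standard error of 0.106 and a 95% interval of -0.83 to -0.36, that is -33.7% with an interval of -43.8% to -21.9%. Its adjusted p in edgeR was 0.0538 (unadjusted p = 0.000261), on the upper side of the threshold, and PVR ranked 112 of the 23124 genes by p. Within pairs of the same BC code, the log2 ratios were -0.59, -0.54 and -0.63.

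The size of the PVR difference moved little between analyses, whereas the side of the threshold did not hold. DESeq2 gave a log2 fold change of -0.61 with an adjusted p of 0.000146, RLE scaling in edgeR gave -0.61 with 0.0486, and the edgeR fit without the filter gave -0.60 with 0.0380. In the edgeR fit with the BC code as a replicate block it was -0.59 with an adjusted p of 0.0372. Leaving out any 1 of the 7 libraries gave log2 fold changes from -0.64 to -0.55 and edgeR adjusted p-values from 0.127 to 0.165. Of the exonic bases of PVR, 19.45% lie in ENSG00000279095, a same-strand gene model of GENCODE, and 1.16% are shared with CEACAM19 on the same strand. ENSG00000279095 was not found under this name in the count table, and whether it was counted under an older name was not checked.

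**Figure D3:**
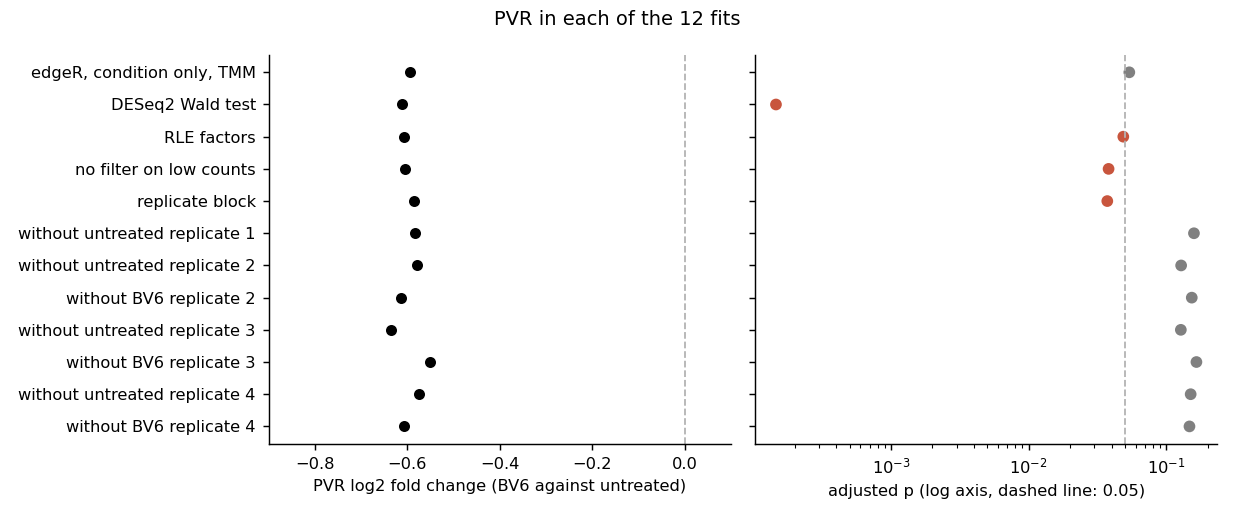
PVR in the edgeR fit with condition only and in each of its 11 alternatives, with the log2 fold change of BV6 against untreated on the left and the adjusted p on a log axis on the right, where red marks values below 0.05. All 12 log2 fold changes lie between -0.64 and -0.55, and 4 of the 12 adjusted p-values are below 0.05.

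NECTIN2, the other DNAM-1 ligand, was spread more widely. Its mRNA was at 67.4, 55.6, 49.9 and 57.0 CPM in untreated replicates 1 to 4 and at 51.1, 29.8 and 60.5 CPM in BV6 replicates 2 to 4. BV6 replicate 3 was the lowest library and BV6 replicate 4 lay above 3 of the 4 untreated libraries, so the groups overlapped. The log2 fold change was -0.29 with a standard error of 0.218 and an interval of -0.77 to 0.20 (edgeR adjusted p = 0.766). It was -0.038 without BV6 replicate 3 and -0.51 without BV6 replicate 4. The log2 ratio of PVR to NECTIN2 within a library averaged -0.12 in untreated and -0.38 in BV6-treated cells (exact permutation test, p = 0.457). This comparison was not planned, and the smallest p it could give was 0.0571. It therefore could not decide whether PVR and NECTIN2 responded differently.

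**Figure D4:**
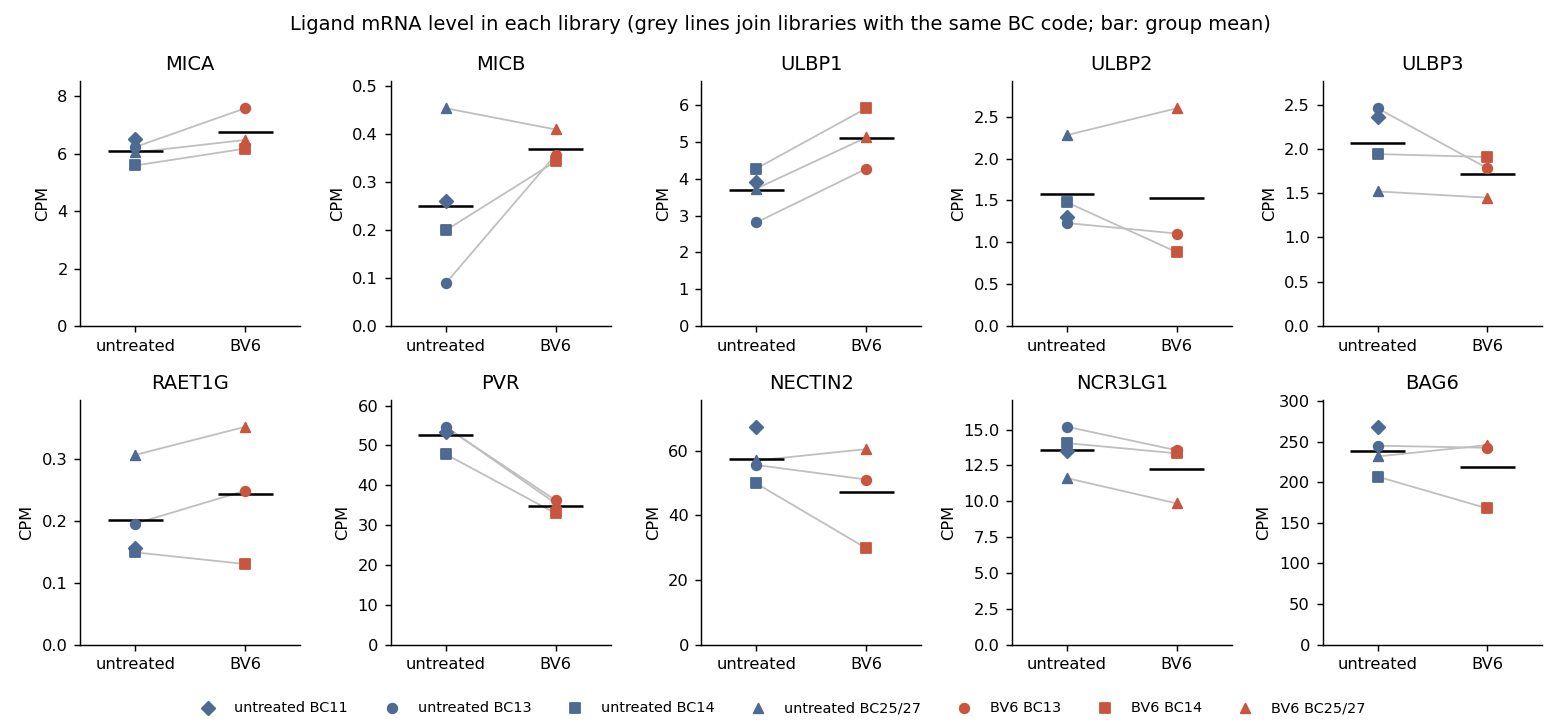
CPM of each ligand gene in every library, untreated in blue and BV6 in red, with 1 marker shape per BC code, grey lines joining libraries of the same code and black bars at the group means. PVR lies at 47.8 to 54.7 CPM in untreated and at 32.9 to 36.2 CPM in BV6-treated cells without overlap, and in every other panel the groups overlap.

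Among the NKG2D ligands, ULBP1, which encodes a ligand held in the membrane by a GPI anchor, had the smallest p. ULBP1 mRNA was at 3.92, 2.81, 4.28 and 3.74 CPM in untreated replicates 1 to 4 and at 4.27, 5.92 and 5.13 CPM in BV6 replicates 2 to 4, from 158 to 363 counts. The groups overlapped only in that untreated replicate 3 was marginally above BV6 replicate 2. The log2 fold change was 0.47 with a standard error of 0.196 and an interval of 0.029 to 0.91 (edgeR unadjusted p = 0.0391, adjusted p = 0.567). All 3 pairs of the same BC code had a higher value with BV6, with log2 ratios of 0.60, 0.47 and 0.46. In the edgeR fit with the replicate block the log2 fold change was 0.51 with an adjusted p of 0.241.

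MICA encodes a transmembrane ligand and had the highest group means per kb of exon among the NKG2D ligands, though it overlapped with ULBP2 in untreated libraries. It was at 6.52, 6.24, 5.59 and 6.05 CPM in untreated replicates 1 to 4 and at 7.59, 6.18 and 6.48 CPM in BV6 replicates 2 to 4. Only BV6 replicate 2 was above all untreated libraries, while the 3 pairs were each higher with BV6 (log2 ratios of 0.28, 0.14 and 0.10). The log2 fold change was 0.15 with an interval of -0.18 to 0.48 (edgeR adjusted p = 0.82). Its close relative MICB was hardly transcribed, with 5 to 28 counts per library. MICB was at 0.260, 0.0891, 0.199 and 0.453 CPM in untreated and at 0.356, 0.342 and 0.409 CPM in BV6-treated cells, and untreated replicate 4 was the highest of all. With a log2 fold change of 0.55 and an interval of -0.51 to 1.61 (edgeR adjusted p = 0.789), no difference was detected. Low counts and the spread between libraries were not told apart here.

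ULBP2 and ULBP3 encode further GPI-anchored ligands, and RAET1G encodes a ligand with a transmembrane form. ULBP2 was at 1.30, 1.23, 1.48 and 2.28 CPM in untreated and at 1.10, 0.881 and 2.60 CPM in BV6-treated cells. The highest library of each group carried the code BC25/27. Its log2 fold change was -0.043 with an interval of -0.92 to 0.83 (edgeR adjusted p = 0.984). ULBP3 was at 2.36, 2.46, 1.94 and 1.52 CPM in untreated and at 1.78, 1.91 and 1.45 CPM in BV6-treated cells, and here BC25/27 gave the lowest library of each group. ULBP3 had a log2 fold change of -0.27 with an interval of -0.79 to 0.24 (edgeR adjusted p = 0.784). Its 3 pairs had log2 ratios of -0.47 (BC13), -0.025 (BC14) and -0.069 (BC25/27), the last 2 close to no difference. RAET1G, with 8 to 19 counts per library, was at 0.156, 0.196, 0.149 and 0.307 CPM in untreated and at 0.249, 0.130 and 0.353 CPM in BV6-treated cells. The groups overlapped, and its log2 fold change of 0.27 had an interval of -0.76 to 1.30 (edgeR adjusted p = 0.897).

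Counts of these paralogs are uncertain where they share sequence. Of the windows of 50 bases along the longest transcript, 32.6% in ULBP2 and 16.2% in RAET1G occurred in another gene, chiefly in each other and in RAET1L. The shares were 11.1% in ULBP3, 8.13% in ULBP1, 3.35% in MICA and 2.87% in MICB, and 0 in NCR3LG1 and BAG6. RAET1G also shares 9.29% of its exonic bases with the antisense gene RAET1E-AS1, and the treatment of strand in counting is not given in the sources used here.

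The ligand mRNAs were also summed by receptor, a sum chosen after the values were seen and given without a test. The 6 NKG2D ligands together were at 14.5, 13.02, 13.6 and 14.3 CPM in untreated and at 15.3, 15.4 and 16.4 CPM in BV6-treated cells. The BV6 libraries were above the untreated ones in this sum, with summed means of 15.7 ± 0.614 (SD, n = 3) and 13.9 ± 0.685 CPM (SD, n = 4). With BV6, ULBP1, MICA, MICB and RAET1G had higher means and ULBP2 and ULBP3 lower means. PVR and NECTIN2 together were at 120.7, 110.2, 97.6 and 111.7 CPM in untreated and at 87.3, 62.7 and 95.9 CPM in BV6-treated cells. Here the BV6 libraries were below the untreated ones by a narrow margin, with 95.9 CPM the highest BV6 and 97.6 CPM the lowest untreated value. The means were 82.0 ± 17.2 CPM with BV6 and 110.03 ± 9.48 CPM in untreated cells. PVR alone also did not overlap, whereas NECTIN2 alone did. Taken as single genes, 8.83% of all genes tested did not overlap between the groups, and the share for sums of genes was not computed. Per length, ULBP1 made up 23.9% ± 3.69 of the NKG2D ligand mRNA in untreated and 30.1% ± 6.31 in BV6-treated cells, and MICA 33.2% ± 3.44 and 33.2% ± 5.90 (SD, n = 4 and n = 3).

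**Figure D5:**
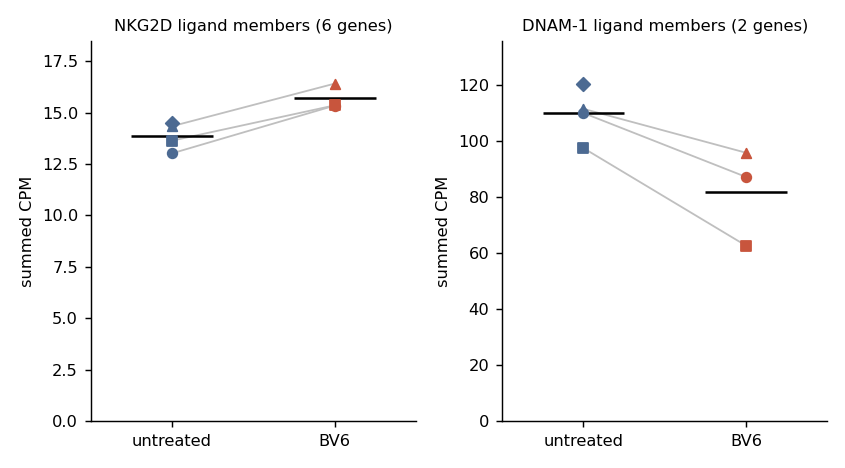
Summed CPM of the 6 NKG2D ligand genes (left) and of PVR with NECTIN2 (right) in each library, untreated in blue and BV6 in red, with 1 marker shape per BC code, grey lines joining libraries of the same code and black bars at the group means. The NKG2D sums run from 13.02 to 14.5 CPM in untreated and from 15.3 to 16.4 CPM in BV6-treated cells, and the DNAM-1 sums from 97.6 to 120.7 and from 62.7 to 95.9 CPM.

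The mRNAs of both NKp30 ligands overlapped between the groups. NCR3LG1, which encodes B7-H6, was at 13.5, 15.2, 14.1 and 11.6 CPM in untreated replicates 1 to 4 and at 13.6, 13.3 and 9.84 CPM in BV6 replicates 2 to 4. Code BC25/27 gave the lowest library of each group, and all 3 pairs were lower with BV6 (log2 ratios of -0.17, -0.075 and -0.24). The log2 fold change was -0.15 with a standard error of 0.162 and an interval of -0.51 to 0.21 (edgeR adjusted p = 0.828). BAG6 was at 268.3, 245.0, 206.8 and 231.7 CPM in untreated and at 242.3, 167.6 and 245.7 CPM in BV6-treated cells. Code BC14 gave the lowest library of each group. The log2 fold change of BAG6 was -0.12 with a standard error of 0.152 and an interval of -0.46 to 0.22 (edgeR adjusted p = 0.849).

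BAG6 works with GET4, UBL4A, SGTA and GET3 in handing tail-anchored proteins to the endoplasmic reticulum, and with the ubiquitin ligase RNF126 in clearing misplaced proteins. Of 6 such partners, 0 were called, with 5 log2 fold changes below 0 and a median of -0.22. RNF126 was at 29.5, 23.1, 11.5 and 12.5 CPM in untreated and at 16.5, 5.41 and 13.4 CPM in BV6-treated cells (log2 fold change -0.70, edgeR adjusted p = 0.711). SGTA was at 128, 120, 88.7 and 89.5 CPM in untreated and at 109, 47.5 and 89.8 CPM in BV6-treated cells (log2 fold change -0.38, edgeR adjusted p = 0.744). BV6 replicate 3 was the lowest of the 7 libraries for all 6 partners, and for 5 of the 10 ligand genes (ULBP2, RAET1G, PVR, NECTIN2 and BAG6). The same library was the lowest for 24.9% of all genes tested, more than any other library.

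The remaining NKG2D ligand genes had few counts. RAET1L was at 0.195, 0.107, 0.166 and 0.679 CPM in untreated and at 0.196, 0.196 and 0.539 CPM in BV6-treated cells, with a log2 fold change of 0.10 (edgeR adjusted p = 0.977). RAET1E had 2 to 8 counts per library and was not tested, with means of 0.0728 ± 0.0508 CPM in untreated and 0.110 ± 0.0342 CPM in BV6-treated cells. Code BC25/27 gave the highest library of each group for RAET1L, as for ULBP2 and RAET1G, with which RAET1L shares sequence. The same held for MICB, for which no window shared with RAET1L was found. The cause was not tested.

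Of 7 other nectins and nectin-like molecules, which include binding partners of PVR and NECTIN2 on neighbouring cells, 6 were tested and 0 called, with a median log2 fold change of -0.17. NECTIN3, which binds PVR and nectin-2, was at 40.6, 50.1, 47.3 and 46.4 CPM in untreated and at 37.8, 40.4 and 37.5 CPM in BV6-treated cells. NECTIN3 was the 1 gene of the 6 whose groups did not overlap, against 8.83% of all genes tested. Its log2 fold change of -0.26 had a standard error of 0.111 (edgeR adjusted p = 0.582). CADM2, a cell adhesion molecule, averaged 1.12 ± 0.390 CPM in untreated and 0.679 ± 0.0647 CPM in BV6-treated cells (log2 fold change -0.72, edgeR adjusted p = 0.603).

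Of 12 ligand genes of other activating receptors on NK cells, 10 were tested and 0 called, with a median log2 fold change of 0.029. CLEC2A, the ligand of NKp65, averaged 1.92 ± 0.616 CPM in untreated and 1.05 ± 0.481 CPM in BV6-treated cells (log2 fold change -0.86, edgeR adjusted p = 0.576). CLEC2B, the ligand of NKp80, averaged 0.515 ± 0.309 and 0.922 ± 0.508 CPM (log2 fold change 0.85, edgeR adjusted p = 0.730). Both genes overlapped between the groups.

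Of 7 genes for proteases and an isomerase that can release NKG2D ligands from the cell surface, MMP9 rose and the other 6 were not called, with a median log2 fold change of 0.073 over the 7. MMP9, a secreted matrix metalloproteinase, was at 0.506, 0.463, 0.282 and 0.275 CPM in untreated and at 3.24, 0.978 and 3.83 CPM in BV6-treated cells, from 17 to 206 counts. All BV6 libraries were above all untreated libraries, and BV6 replicate 3 was the lowest of the BV6 group. The log2 fold change was 2.80 with a standard error of 0.453 (edgeR adjusted p = 0.0363). Without any 1 of the other 6 libraries the adjusted p in edgeR was 0.0923 to 0.136, and without BV6 replicate 3 it was 0.00184. ADAM17, the sheddase of several NKG2D ligands, averaged 39.3 ± 4.86 CPM in untreated and 45.7 ± 3.98 CPM in BV6-treated cells (log2 fold change 0.22, edgeR adjusted p = 0.707).

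Of 15 regulators of NKG2D ligand genes in the stress and DNA damage response, 0 were called, with 11 log2 fold changes above 0 and a median of 0.10. An unadjusted edgeR p below 0.05 was found for 3 of the 15, against 8.39% of all genes tested. The groups did not overlap for 3 of the 15, against 8.83% of all genes tested. DDIT3, a transcription factor (CHOP) of the endoplasmic reticulum stress response, was at 87.8, 59.1, 126 and 94.3 CPM in untreated and at 141, 172 and 189 CPM in BV6-treated cells. The groups did not overlap, and the log2 fold change was 0.87 with a standard error of 0.218 (edgeR adjusted p = 0.201). It was 0.90 with an adjusted p of 0.0431 in the edgeR fit with the replicate block. DESeq2 gave an adjusted p of 0.0291 and the edgeR fit without the filter 0.0209, and without any 1 of the 7 libraries the edgeR adjusted p was 0.121 to 0.509. E2F1, a transcription factor of the cell cycle, was at 213, 179, 175 and 160 CPM in untreated and at 159, 119 and 146 CPM in BV6-treated cells. These groups did not overlap by a narrow margin, and the log2 fold change was -0.36 (edgeR adjusted p = 0.498).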

How the data were processed

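Stranded, poly(A)-selected RNA-seq libraries of RH30 cells were compared, 4 untreated and 3 treated with BV6. The authors mapped reads to GRCh38 (Ensembl 95) with STAR 2.6.1d and deposited raw counts per gene for 57189 genes from a custom union of each gene's isoforms. The counting program and how it treated strand and multiply assigned reads are not given in the sources used here. Totals ranged from 54070030 to 77220882 counts. These totals exceed the read number per library in the study's methods, so 1 count may not be 1 fragment, and the limit of 3 counts and the low counts of MICB and RAET1G may stand for fewer molecules.

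Groups and BC codes came from the sample titles. The 10 ligand genes and the 6 lists of related genes were chosen with earlier results of these data known. All 10 members are named. Of each list, RAET1E and RAET1L, every called gene and the 2 genes with the smallest unadjusted p are named.

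From the deposited counts, edgeR 4.0.16 in R 4.3.3 gave log2 fold changes and p-values (filterByExpr with a minimum count of 10, TMM, glmQLFit and glmQLFTest, condition only, two-sided) for 23124 genes, adjusted by Benjamini-Hochberg. The F statistic of each gene gave its standard error. The script was tested on simulated data. Gene positions and lengths came from GENCODE release 44, in which 37180 genes matched by symbol or synonym, and promoter sequences from RefSeq (GRCh38.p14), in which all 10 members matched. Motifs were searched on both strands.

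Whether libraries with the same BC code deviated together from their group means was checked. Over 23124 genes the correlations were 0.515, 0.322 and 0.197 for the 3 pairs, with untreated replicate 1 left out, and 0.462, 0.438 and 0.0847 with it included in the untreated mean. For libraries of different codes they ranged from -0.352 to 0.132 and, with untreated replicate 1, from -0.437 to 0.278. The 3 same-code values among the 6 paired libraries were above the limit of 0.1 set for pairing, but so was the highest different-code value, 0.132. With untreated replicate 1 included, the same-code value of 0.0847 was below the highest different-code value, 0.278. These correlations did not settle the pairing. The codes pair the samples in the replicate block only, and the fit with condition only leaves them out. In the blocked fit, untreated replicate 1 had no partner and did not inform the BV6 difference. The blocked fit is given where it changes a call and for ULBP1.

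Alternatives were DESeq2 1.42.0, RLE scaling, no filter on low counts, the replicate block, leaving out each library, a minimum absolute log2 fold change of 1, and the longest transcript as length. A correction for GC content was void, since 77.5% of the genes tested had a value.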

Additional observations from a re-analysis of the deposited data

Results flagged for a closer look

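RAET1L, an NKG2D ligand gene with 6 to 42 counts per library, stood apart in untreated replicate 4, at 0.679 CPM against 0.107 to 0.195 CPM in the other 3 untreated libraries. This library was also the highest untreated one for ULBP2, RAET1G and MICB and, by a narrow margin, for PVR. The untreated groups of 12 ligand genes were looked at in this way, and chance sets 1 library apart in about 1 of 20 groups.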

How the results depend on the processing

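The number of genes called was 104 in the edgeR fit with condition only and 408 under DESeq2, 242 without the filter on low counts, 218 with the replicate block and 38 to 89 when 1 library was left out. Of the 10 ligand genes, 1 (PVR) was called under each of DESeq2, RLE scaling, no filter and the replicate block, and 0 in each of the 7 fits that left out a library. The PVR log2 fold change in these 4 settings was -0.61, -0.61, -0.60 and, with the replicate block, -0.59, and -0.64 to -0.55 with 1 library left out. The median over the ligand genes ranged from -0.13 to 0.13 with 1 library left out, and the highest value came without BV6 replicate 3. The log2 fold changes of 3 ligand genes changed sign. With 1 library left out, ULBP2 ranged from -0.66 to 0.24 (0.15 without BV6 replicate 2, 0.24 without BV6 replicate 3 and 0.19 without untreated replicate 4), RAET1G from -0.10 to 0.58 (-0.10 without BV6 replicate 4) and BAG6 from -0.22 to 0.041 (0.041 without BV6 replicate 3). NCR3LG1 ranged from -0.22 to -0.016 (-0.016 without BV6 replicate 4), MICA from 0.062 to 0.21, MICB from 0.28 to 0.98 and ULBP3 from -0.40 to -0.17. The cause was not tested. Among the proteases, 0 to 1 genes were called with 1 library left out, and among the stress regulators 1 gene, DDIT3, was called under DESeq2, without the filter and with the replicate block. The replicate block, in which libraries were paired by BC code, changed no other call among the ligand genes and the 6 lists of related genes, and was not run for the marker genes one by one. Per kb of the longest transcript, the untreated level was 2.70 CPM for MICA, 8.13 for PVR, 21.4 for NECTIN2 and 60.7 for BAG6. The GC-corrected fit was not run, since too few genes had a GC value. At 5 to 28 counts per library for MICB and 8 to 19 for RAET1G, their wide intervals held changes in both directions. The smallest change that could have been detected was not worked out.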
